A study of Mus musculus with 59 samples.

Results

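Among the array elements that measured RNA in mouse melanocytes given alpha-melanocyte stimulating hormone (alpha-MSH) or agouti signal protein (ASP), 153 probes were lower with alpha-MSH and higher with ASP after the longest treatments. They were chosen by their late log ratios. A probe was a member if it had a value on all 59 arrays, a mean alpha-MSH value over 3 d and 4 d of -0.4 or less, and a mean ASP value over 3 d and 4 d of 0.4 or more. The table held 38591 probes, of which 18694 had a value on all arrays, and the members were 0.818% of the latter. A further 44 probes passed both thresholds but lacked a value on some array, which made 197. The opposite pattern, higher with alpha-MSH and lower with ASP by the same thresholds, was met by 181 probes.

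Alpha-MSH and ASP act on the same receptor of melanocytes, the melanocortin 1 receptor. Alpha-MSH activates it, raises cyclic AMP and is known for favouring dark eumelanin and the melanocyte-specific enzymes that make it. ASP opposes this action and is known for favouring yellow pheomelanin. The files used here do not pair the probe IDs with genes or sequences. The members are therefore described by ID and by value, without gene names, and the labelled cell type could not be checked against melanocyte markers.

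The cells were melan-a, a pigmented melanocyte line from C57BL6 mice, which is a single established line. Treated cells received 100 nM alpha-MSH or 10 nM ASP for 3 h, 1 d, 2 d, 3 d or 4 d, and each array set treated RNA against RNA of untreated melan-a cells in the other dye. Each of the 10 groups was taken as 3 replicates, each a dye-swapped pair of arrays. For ASP at 2 d, 1 replicate had a single array. That gave 59 arrays and 30 replicates. No label names the partner of an array, so the pairs were assigned here from repeat and database numbers. The consensus correlation between the arrays of a pair was -0.0842, over the probes with a value on all arrays. Arrays of a pair were thus not more alike than other arrays of their group. The 153 members had a value on every array and all were tested in every comparison below. The values are log ratios, taken as log2 of treated over untreated. This direction is likely, because the design text writes the ratio that way, but the numerator and the log base are not stated for the values, and the same numerator was taken for both drugs. Each array was centred on its median. It is not stated whether untreated RNA was shared between times, so values at different times may share their denominator.

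Arrays held 22218 to 38371 values and their medians before centring ran from -1.435 to 0.69. The database numbers in the titles fall into 4 blocks, called runs A to D here. All ASP arrays were in run D and all alpha-MSH arrays in runs A, B and C, so that drug and run cannot be told apart. The replicates are numbered 1 to 3 here by their pair of arrays, in the order of the reverse arrays' repeat numbers. With alpha-MSH at 3 h and 4 d the direct arrays' repeat numbers run in another order, so these are not always the titles' numbers. By this numbering replicate 1 of alpha-MSH was in run A at every time. The lowest correlation between 2 arrays of one dye orientation was -0.2, over the probes with a value on all arrays.

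The late values chose the members and are given as a description only. Over the 153 members the ASP late value ran from 0.4 to 3.08, with a median of 0.99 and quartiles of 0.63 and 1.31. The alpha-MSH late value ran from -2.09 to -0.4, with a median of -0.51 and quartiles of -0.63 and -0.45. The ASP side was the wider one: 76 members had an ASP late value of 1 or more, while 15 had an alpha-MSH late value of -1 or less. The ASP value was the larger in size in 129 of 153 members.

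The thresholds did not weigh equally. An ASP late value of 0.4 or more was common, with 1975 probes or 10.6% of those with a value on all arrays. An alpha-MSH late value of -0.4 or less was found for 234 probes, or 1.25%. The members made up 65.4% of the alpha-MSH list and 7.75% of the ASP list. Of the remaining alpha-MSH list, 73 probes lay between the ASP thresholds and 8 had an ASP late value of -0.4 or less. Of all probes with a value on all arrays, 8.8% had an ASP mean of -0.4 or less at 3 d and 5.99% at 4 d. The share for the late ASP mean is not given here, so the 8 probes are a count only.

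At the edges of the rule the values were continuous. The members nearest the ASP threshold had ASP late values of 0.4, 0.401 and 0.402, and the nearest probes outside it had 0.397, 0.393 and 0.392. At the alpha-MSH threshold the nearest members had -0.4, -0.401 and -0.403, and the nearest probes outside had -0.398, -0.398 and -0.396. One of the latter, 1779488_1, had an ASP late value of 2.04, so that a clear ASP value did not by itself make a member.

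Replicates and dyes were uneven on the alpha-MSH side. All 6 late ASP replicates were above 0 in 140 members, all 6 late alpha-MSH replicates were below 0 in 102, and 100 members had both. With treated RNA in Cy3 the median alpha-MSH value of the members was -0.87 at 3 d and -0.75 at 4 d. With treated RNA in Cy5 it was -0.4 at both times. The corresponding ASP medians were 1.08 and 0.94 in Cy3 and 0.95 and 1.01 in Cy5. The dye of the treated RNA thus moved the alpha-MSH values of the members more than their ASP values, and each late value is the average over both dyes.

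**Figure D1:**
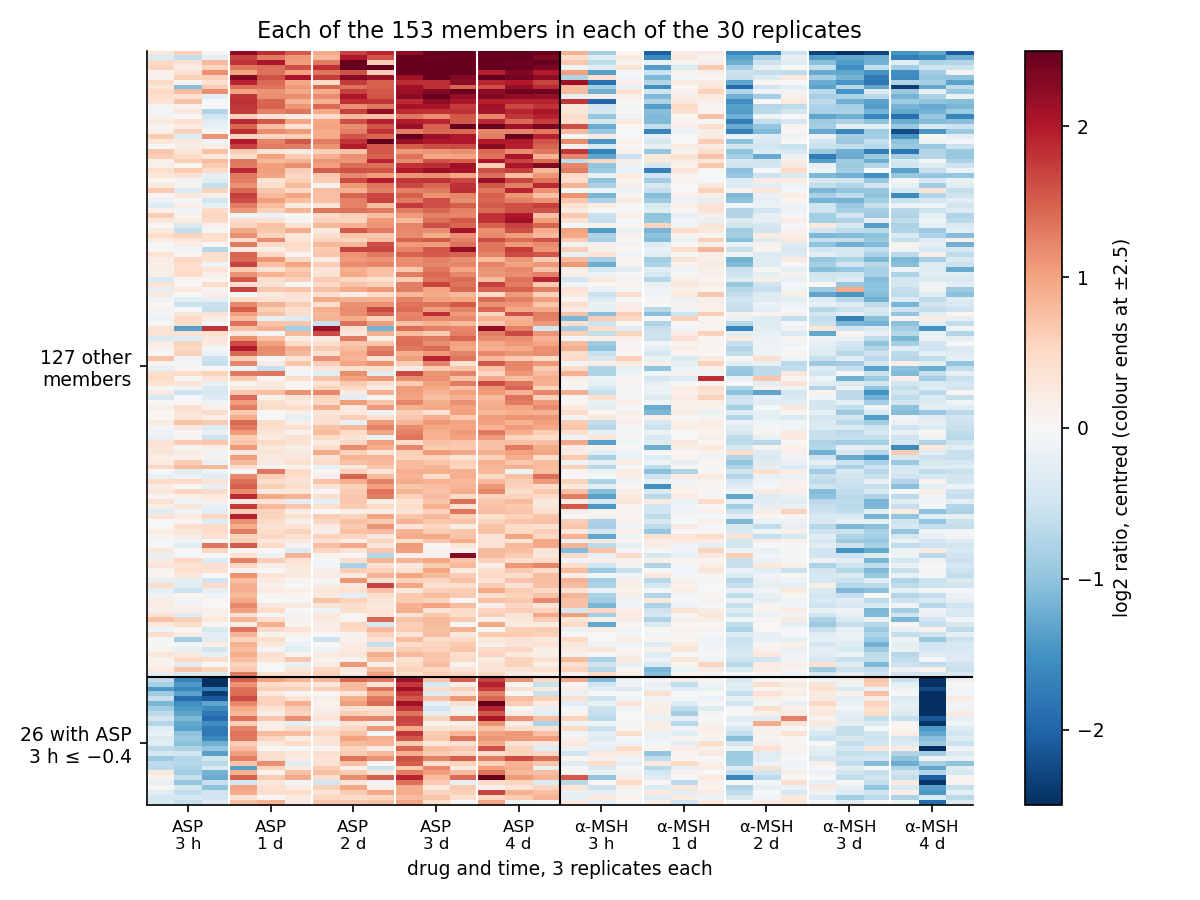
Colour gives the centred log2 ratio of each of the 153 members (rows) in each of the 30 replicates (columns, 3 for each drug and time); colours end at 2.5 in either direction. The 127 upper rows are ordered by late difference, and the 26 lower rows are members with an ASP value of -0.4 or less at 3 h, most of which (23) are lowest in replicate 2 among the replicates of alpha-MSH at 4 d.

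The times that the rule did not use were 3 h, 1 d and 2 d. With ASP the members were already high at 1 d. Over the members, the median per replicate at 3 h was 0.1, 0.06 and -0.02. At 1 d it was 1.07, 0.46 and 0.38, and at 2 d it was 0.47, 0.75 and 0.85. The replicates of 1 d and 2 d all lay above those of 3 h. The mean of the replicate medians was 0.04 ± 0.06 at 3 h, 0.64 ± 0.37 at 1 d and 0.69 ± 0.2 at 2 d (SD, n = 3). At the times of the rule it was 1.0 ± 0.1 at 3 d and 0.96 ± 0.12 at 4 d.

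Replicate 1 of ASP at 1 d stood apart over the whole array. Its median over the 18694 probes with a value on all arrays was 0.51 after centring, against -0.05 in each of the other replicates. Relative to that median the members were higher by 0.56, 0.51 and 0.43 in the 3 replicates. Its part in the calls at 1 d was not tested beyond leaving it out, and the counts without it are given below.

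**Figure D2:**
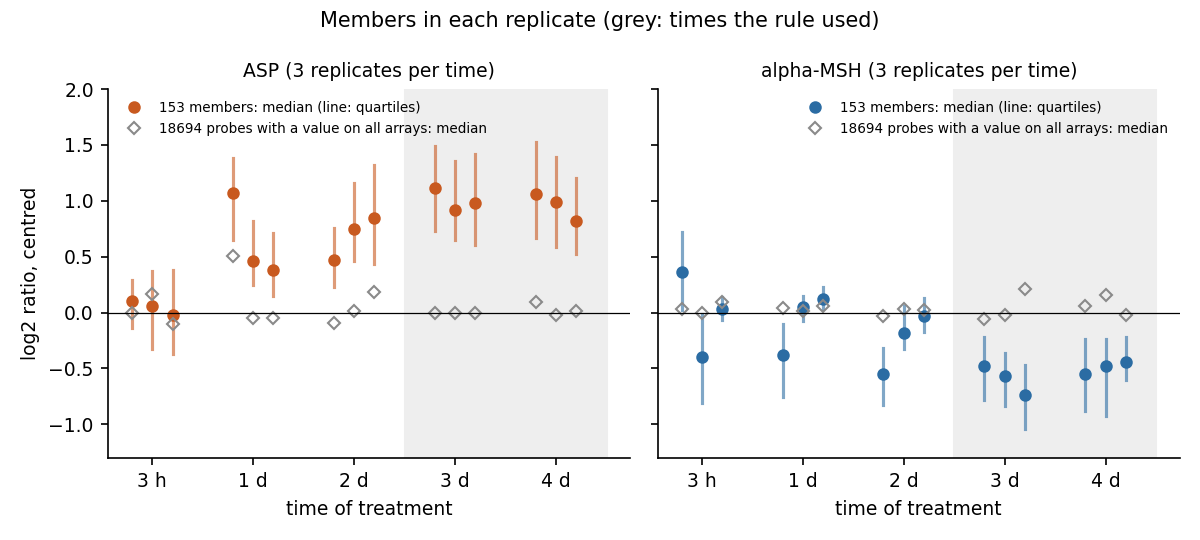
Filled points give the median of the 153 members in each replicate and lines their quartiles, on the centred log2 scale; open diamonds give the median of the 18694 probes with a value on all arrays. ASP medians are 0.38 or more in every replicate from 1 d on, while alpha-MSH medians are all below 0 from 2 d on; shaded times chose the members.

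ASP values of single members passed the test in 1 direction at 1 d and 2 d. By limma with Benjamini-Hochberg adjustment over all probes tested, 24 members were higher at 1 d at an adjusted p under 0.05 and none was lower. The share called higher at 1 d was 0.56% of all 36457 probes tested and 0.995% of the probes with a value on all arrays, against 15.7% of the members. At 2 d 51 members were higher, or 33.3%, against 1.67% of all 33270 probes tested and 2.43% of those with a value on all arrays. Over 1 d and 2 d together 99 members were higher, or 64.7%, against 4.18% of the 33233 tested and 6.75% of those with a value on all arrays. None was lower at 2 d or over both times. At an unadjusted p under 0.05 also 0 members were lower, against 5.0% of all probes tested at 1 d, 7.39% at 2 d and 8.69% over both. The members were chosen for high late ASP values, and the probes set beside them were not. Over both times 1262 probes with a value on all arrays were called higher. The share called among the 1975 probes with an ASP late value of 0.4 or more is not given here.

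Without replicate 1 the count at 1 d was 2, without replicate 2 it was 14, and the count over both times without replicate 1 of 1 d was 60. At 2 d the count was 20 without replicate 2 and 17 without replicate 3, the replicate with a single array. In a fit of only the replicates compared, 0 members were called at 1 d, 0 at 2 d and 1 over both, while the other way of pairing the arrays gave 63 at 1 d. Counts by sign gave a like picture. The ASP value was above 0 in all 3 replicates at 1 d in 125 members (81.7%), against 22.6% of the probes with a value on all arrays. At 2 d it was above 0 in all 3 in 130 members (85.0%), against 21.5%. In all 6 replicates of the 1 d and 2 d groups 113 members (73.9%) were above 0, against 9.79%. Whether the untreated RNA was common to early and late times bears on all of these counts and is not known here.

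The median estimate over 1 d and 2 d was 0.64 for the members, with quartiles of 0.44 and 0.93, and 0.08 for the probes with a value on all arrays. The 54 members that were not called had a median of 0.35, and the 99 called had 0.81. Members with a late ASP value of 1 or more had medians of 0.86 at 1 d and 0.92 at 2 d, and 67 of these 76 were called. The 77 with a smaller late value had 0.49 and 0.44, and 32 were called. Members that were higher late were thus also the higher ones early.

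Among the 6 members with the smallest p for ASP over 1 d and 2 d, replicates were close in some and spread in others. Probe 1797779_1 had ASP values of 1.7, 1.29 and 1.27 at 1 d and 1.12, 1.99 and 1.53 at 2 d, after 0.0, 0.14 and 0.19 at 3 h. All 6 values of 1 d and 2 d lay above all 3 of 3 h. Its estimate over 1 d and 2 d was 1.49 ± 0.11 (SE), with a limma adjusted p of 5.3e-08. With alpha-MSH it had -0.21, 0.23 and 0.21 at 1 d and -0.46, -0.47 and -0.56 at 2 d, so that it changed sign between replicates at 1 d and was low in every replicate at 2 d.

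Probe 1770597_1 had ASP values of 2.29, 1.6 and 2.02 at 1 d and 1.73, 2.28 and 2.16 at 2 d. Its estimate was 2.01 ± 0.16 (SE), with a limma adjusted p of 1.3e-07 that ranged from 3.6e-14 to 0.031 over the alternatives. All members were fitted under the alternatives, and the p-values of 14 named members were followed over them for this comparison. Among these 14, 1770597_1 was the only one called under every alternative. Probe 1765497_1 was less changed at 1 d, with 1.11, 0.6 and 0.84, than at 2 d, with 1.34, 1.38 and 1.29. Its estimate over both times was 1.09 ± 0.1 (SE), with a limma adjusted p of 5.8e-07. The remaining 3, 1776770_1, 1783022_1 and 1782087_1, had estimates of 2.23, 1.53 and 1.49. Their replicates at 2 d were more spread. They ran from 1.82 to 4.33 in 1776770_1, from 0.94 to 2.19 in 1783022_1 and from 0.97 to 1.93 in 1782087_1.

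**Figure D3:**
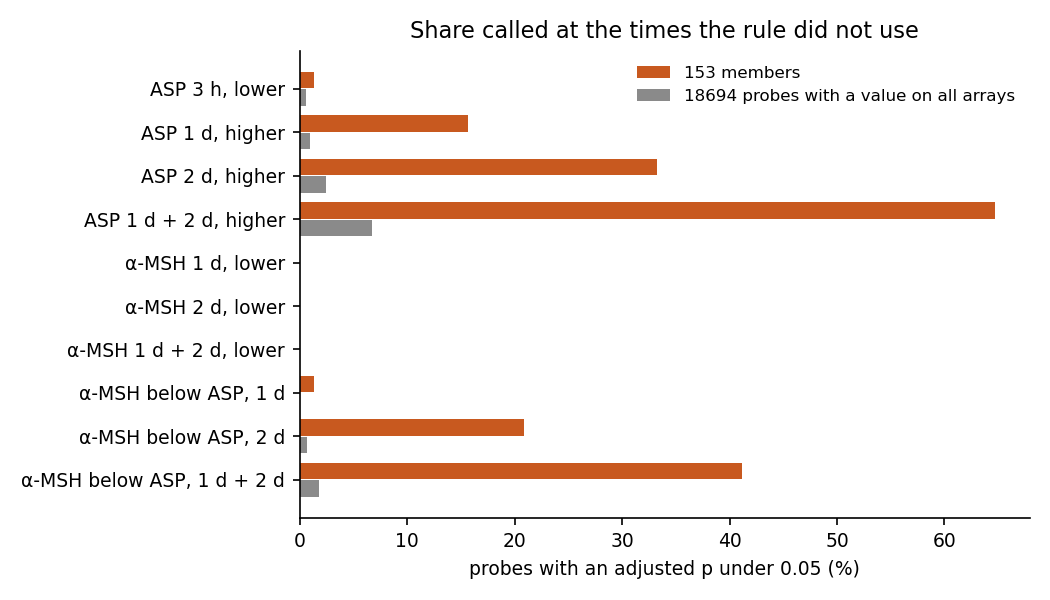
Bars give the percentage of probes with a limma adjusted p under 0.05 in the direction named, for the 153 members and for the 18694 probes with a value on all arrays; the axis starts at 0. The highest bar is ASP over 1 d and 2 d, with 64.7% of the members against 6.75%. The comparisons of alpha-MSH with untreated cells have no calls in either set. Those of alpha-MSH below ASP reach 41.2% of the members over 1 d and 2 d, against 1.79%.

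With alpha-MSH the members had smaller early means, and no member passed the test at a time the rule did not use. The median per replicate at 3 h was 0.36, -0.4 and 0.03. At 1 d it was -0.38, 0.05 and 0.12, and at 2 d it was -0.55, -0.18 and -0.03. The replicates had opposite signs at 3 h and 1 d, and all 3 were below 0 at 2 d. At 3 h 118 members were above 0 and 35 below in replicate 1, and 35 above and 118 below in replicate 2. The mean near 0 at 3 h thus averaged opposite values, for example 2.11, -1.86 and 0.13 in 1786315_1. What set these replicates apart was not tested. The means were -0.01 ± 0.38, -0.07 ± 0.27 and -0.26 ± 0.27 (SD, n = 3), each smaller than its spread between replicates. At 3 d and 4 d, which chose the members, they were -0.6 ± 0.13 and -0.49 ± 0.06.

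The early alpha-MSH values differed between the runs. At 3 h and 1 d each run held 1 replicate, so that run and replicate cannot be told apart there. In run A, which held replicate 1, the median of the members was 0.36 after 3 h. It was -0.38 after 1 d, -0.55 after 2 d and between -0.55 and -0.48 thereafter. In run B it was -0.4 after 3 h, 0.05 after 1 d and -0.11 after 2 d, then -0.65 after 3 d and -0.46 after 4 d. Run C held 1 replicate of 3 h, at 0.03, and 1 of 1 d, at 0.12. Low values from 1 d on were thus found in run A, and in run B mainly from 3 d on. With 1 or 2 replicates per run and time, this difference between runs was not tested.

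By limma 0 members were called lower with alpha-MSH at 3 h, 1 d, 2 d or over 1 d and 2 d at an adjusted p under 0.05. The share over all probes was 0.0% for each of these comparisons, so that no probe passed. At an unadjusted p under 0.05, 0 members were lower at 3 h, against 0.825% of all probes tested, and 1 (0.654%) at 1 d, against 1.2%. At 2 d 23 members (15%) were lower, against 1.14%, and over 1 d and 2 d 17 members (11.1%), against 1.31%. The share of low values among the members was thus above that of all probes at 2 d and over both times. The members were chosen for low late alpha-MSH values and the probes set beside them were not. This holds also for the counts by sign and size below. Without replicate 1 of 2 d, the median estimate of the members at 2 d went from -0.26 to -0.1. The alternative settings also gave 0 calls. The median 95% interval of a member reached 0.33 to either side of its estimate over 1 d and 2 d, and 0.47 at a single time.

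By sign, 66 members (43.1%) were below 0 in all 3 alpha-MSH replicates at 2 d, against 11.1% of the probes with a value on all arrays. At 1 d the count was 9 members (5.88%), against 5.75%, a share near the background. By size, the alpha-MSH mean was -0.4 or less in 9 members (5.88%) at 1 d, against 0.219% of the probes with a value on all arrays. At 2 d it was so in 40 members (26.1%), against 0.653%.

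The 6 members with the smallest p for alpha-MSH over 1 d and 2 d had estimates of -0.53 or lower, with adjusted p-values of 1 by limma. Probe 1768586_1 was the lowest, at -0.92 ± 0.24 (SE). Its replicates were -2.05, 0.17 and 0.21 at 1 d and -1.64, -1.69 and -0.53 at 2 d. At 1 d the mean rested on replicate 1, of run A, and at 2 d all 3 replicates were low. Probe 1792131_1 had -1.65, -0.16 and 0.17 at 1 d and -1.68, -1.11 and 0.02 at 2 d, so that replicate 1 was the lowest at both times and replicate 3 was near 0 at 2 d. In 1773217_1, at -0.91, -0.66 and -0.61 at 2 d, the 3 replicates were close, and its ASP values at 2 d of 0.32, 0.38 and 0.43 were modest.

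The 15 members with an alpha-MSH late value of -1 or less had a median of -1.1, 0.09 and 0.14 in the replicates of 1 d. At 2 d they had -1.35, -0.59 and -0.26. Their ASP medians were 1.36 at 1 d and 1.38 at 2 d, against 0.59 and 0.6 for the other 138 members. All 15 also had an ASP late value of 1 or more, while 77 of the other 138 members had a smaller one. The members lowest late with alpha-MSH were thus higher with ASP both late and at the times that the rule did not use. A part of the late alpha-MSH value apart from the late ASP value was not tested.

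The drugs were compared directly as the difference between their values in the same fit. Alpha-MSH was lower than ASP in 0 members after 3 h, in 2 after 1 d, in 32 after 2 d and in 63 over 1 d and 2 d, at a limma adjusted p under 0.05. The shares of all probes tested were 0.0%, 0.0165%, 0.467% and 1.13%. Over 1 d and 2 d the share was 41.2% of the members, against 1.79% of the probes with a value on all arrays. The members were chosen for a late difference between the drugs in this direction, and the probes set beside them were not. No member was called in the other direction, and over 1 d and 2 d 0 were higher at an unadjusted p under 0.05, against 5.59% of all probes tested. At 3 h, where no probe was called, 3 members (1.96%) were lower and 15 (9.8%) higher at an unadjusted p under 0.05, against 2.17% and 3.61% of all probes tested. The median difference over 1 d and 2 d was -0.79, with quartiles of -1.08 and -0.53, and -0.05 for the probes with a value on all arrays.

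These counts carry the run with the drug, and with the alpha-MSH runs as a block the count at 2 d was 17. Fitted on only the replicates compared, 0 members were called at 1 d, 0 at 2 d and 27 over both. The count at 2 d was 12 without replicate 1 of alpha-MSH, 15 without its replicate 2, 17 without replicate 2 of ASP and 13 without its replicate 3. Over 1 d and 2 d it was 37 without replicate 1 of alpha-MSH at either time and 39 without replicate 3 of ASP at 2 d. At 1 d the 2 calls fell to 0 without replicate 1 of alpha-MSH and to 1 without its replicate 3 or replicates 1 or 2 of ASP. For 1797779_1 the difference was -1.7 ± 0.16 (SE, limma adjusted p = 4.0e-06), and for 1768586_1 it was -2.61 ± 0.33 (SE, limma adjusted p = 1.0e-04).

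The step with ASP between 3 h and 1 d was also tested. At 1 d 16 members were higher than at 3 h at a limma adjusted p under 0.05, against 0.464% of all 36388 probes tested, and none was lower. The median step was 0.65, with quartiles of 0.27 and 1.05, and 0.11 over the probes with a value on all arrays. The count was 0 without replicate 1 of 1 d, 1 without replicate 2 of 1 d and 9 without its replicate 3. Without replicates 2 and 3 of 3 h it was 2 and 0. It was 0 when only the replicates compared were fitted. The median step stayed between 0.52 and 0.82 with any replicate left out, and was 0.65 in the fit of only the replicates compared, so that the count varied more than the size of the step.

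At 3 h itself ASP gave no common direction. The ASP mean was above 0 in 87 members and below 0 in 66. By limma 0 members were called higher, where 0.0627% of all 38302 probes tested were. At an unadjusted p under 0.05, 8 (5.23%) were higher, against 4.63%. By adjusted p 2 members were called lower, where 0.352% were. These were 1785474_1, at -1.43, -1.64 and -1.7 (limma adjusted p = 0.042), and 1795726_1, at -0.26, -1.03 and -1.2 (limma adjusted p = 0.047). They are named because the count is small. Their adjusted p ranged from 0.0027 to 0.74 and from 0.007 to 0.74 over the alternatives. The count was 0 without replicate 2 or replicate 3 and 8 without replicate 1.

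A group of 26 members had an ASP value of -0.4 or less at 3 h. That is 17.0% of the members, and 7.86% of the probes with a value on all arrays (1469 probes) were as low. The group was picked after its values were seen and is described without a test. Its ASP medians in the 3 replicates were -0.52, -0.99 and -1.33 at 3 h, then 1.02, 0.43 and 0.39 at 1 d and 0.34, 0.7 and 0.79 at 2 d. The other 127 members had 0.14, 0.17 and 0.07 at 3 h. The mean at 3 h chose the group, and 23 of the 26 were below 0 in all 3 replicates there. By its medians the group was above 0 in every replicate at 1 d and 2 d, where it resembled the other members. Single members differed, with lowest values of -1.38 at 1 d and -0.54 at 2 d.

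The late values of these 26 members differed between replicates. With alpha-MSH at 4 d their medians were -0.35, -1.98 and -0.19, against -0.61, -0.39 and -0.47 in the other members. At 3 d they were 0.0, -0.32 and -0.41, against -0.51, -0.62 and -0.84. By these medians only replicate 2 of 4 d was far below 0, on both of its arrays: the median was -1.89 with treated RNA in Cy5 and -1.96 in Cy3. It was the lowest of the 3 replicates at 4 d in 23 of the 26 members and in 27 of the 127 others. All 7 members with an alpha-MSH mean above 0 at 3 d were in this group.

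With ASP at 3 d the 26 members had medians of 1.53, 0.56 and 0.55, and at 4 d 1.27, 0.6 and 0.44, so that replicate 1 was the highest at both times. The 127 others had 1.05, 1.0 and 1.03 at 3 d. Probe 1763932_1 was an extreme case in this group. Its ASP values were -0.83, -1.43 and -2.5 at 3 h and 1.76, -0.39 and 0.17 at 3 d. Its alpha-MSH values were 0.33, -0.12 and 0.6 at 3 d and -0.23, -3.44 and 0.03 at 4 d. Apart from replicate 2 at 4 d, no late alpha-MSH value of this probe was below -0.23. Not all of the 26 were like it. Probe 1786042_1, also of the group, had alpha-MSH values of -0.36, -0.84 and -0.65 at 3 d. At 4 d it had -0.79, -0.39 and -0.67.

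The low values of replicate 2 of alpha-MSH at 4 d were not limited to the members. The 1469 probes with a low ASP value at 3 h had medians of 0.06, -0.54 and -0.01 in the 3 replicates of alpha-MSH at 4 d, against 0.06, 0.16 and -0.02 over all probes with a value on all arrays. What set that replicate apart was not tested.

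**Figure D4:**
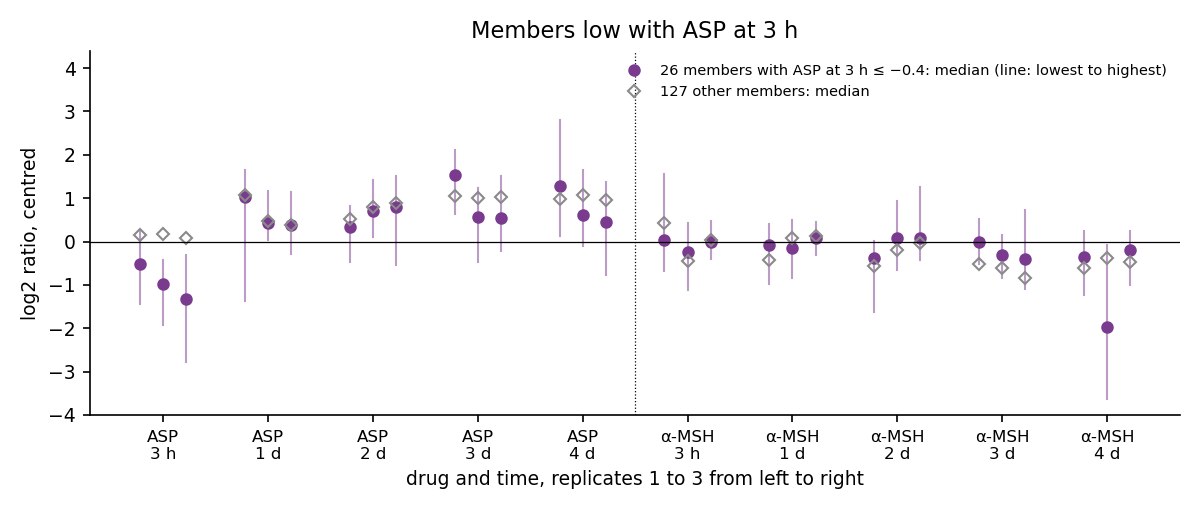
Filled points give the median, and lines the lowest and highest value, of the 26 members with an ASP value of -0.4 or less at 3 h, in each of the 30 replicates on the centred log2 scale; open diamonds give the median of the 127 other members. The 26 members were chosen by their low ASP mean at 3 h. In replicate 2 of alpha-MSH at 4 d their median is -1.98, and single members run from -3.63 to -0.08.

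Membership was recomputed without each of the 12 late replicates. Of the 153 members, 75 met the rule under every one of these settings, and 5 of those were among the 26 members low at 3 h. Without replicate 2 of alpha-MSH at 4 d, 123 members were kept, and 19 of the 30 that were lost were among the 26. Without replicate 3 of alpha-MSH at 3 d, 122 were kept, and 3 of the 31 lost were among the 26. Leaving out a late ASP replicate cost 1 to 12 members, and leaving out a late alpha-MSH replicate cost 11 to 31. The alpha-MSH replicates thus decided more of the membership.

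The 75 members that met the rule throughout had medians of 0.75 and 0.79 with ASP at 1 d and 2 d and -0.11 and -0.36 with alpha-MSH. Of these, 21 were called higher with ASP at 1 d, 36 at 2 d and 56 over both. The drugs differed in 44 of them over 1 d and 2 d. Of the 24 members called at 1 d, 21 were therefore among the 75. Of the 30 members lost without replicate 2 of alpha-MSH at 4 d, 13 were called for ASP over 1 d and 2 d and 2 between the drugs. Both members called lower at 3 h were among those lost.

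The 10 members with the largest late difference between the drugs had differences of 3.03 to 4.64. They are given as a description of the late values. Probe 1768586_1 led, with ASP values of 2.21, 2.5 and 2.63 at 3 d and 2.58, 2.77 and 2.61 at 4 d, a 5.85-fold late level relative to untreated cells. Its alpha-MSH values were -2.32, -3.06 and -2.29 at 3 d and -1.48, -1.3 and -2.09 at 4 d, 4.26-fold lower than untreated cells. It was the member lowest with alpha-MSH, and no late replicate came near 0.

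Probe 1776770_1 was the highest with ASP. Its ASP values were 3.24, 3.42 and 3.33 at 3 d and 2.69, 3.44 and 2.35 at 4 d, 8.45-fold over untreated cells. Its alpha-MSH values were -0.6, -1.55 and -0.59 at 3 d and -0.85, -0.45 and -0.53 at 4 d. It was also high with ASP at 2 d, with 1.82, 2.91 and 4.33, where the replicate of 4.33 was the one with a single array.

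Probe 1763454_1 had ASP late values of 2.34 to 2.87 and alpha-MSH late values of -1.72 to -1.2. In all 10 members every late ASP replicate was above 0. In 9 of them every late alpha-MSH replicate was below 0. The exception was 1780464_1, with -1.54, -0.86 and 0.08 at 4 d. All 10 were called for ASP over 1 d and 2 d, with limma adjusted p-values from 1.3e-07 for 1770597_1 to 0.0068 for 1786315_1, whose ASP values at 2 d of 0.5, 1.74 and 1.47 were spread. In the fit of only the groups compared, 9 of the 10 were no longer called.

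**Figure D5:**
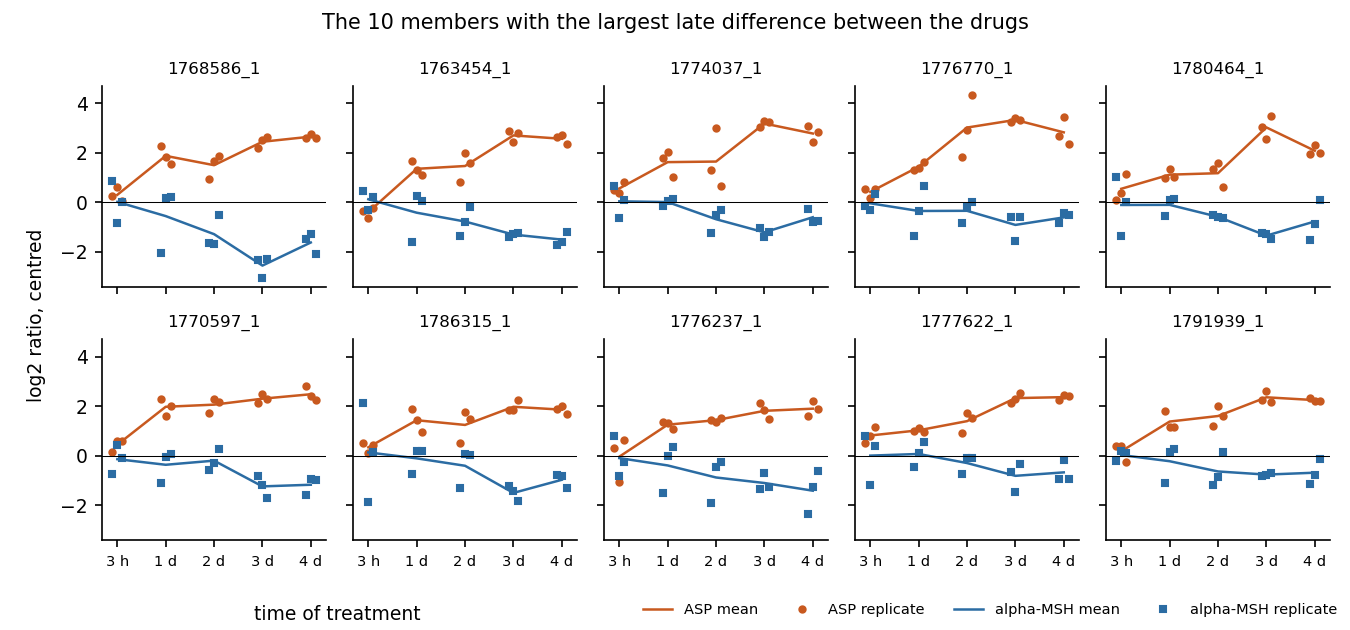
Points give the replicates and lines the means of the 10 members with the largest late difference between the drugs, by time, on the centred log2 scale. In 1768586_1 ASP reaches 2.77 at 4 d and alpha-MSH -3.06 at 3 d; ASP is above 0 in every replicate from 1 d on in all 10 panels.

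Not every member was high with ASP before 3 d. The 4 members with the lowest ASP mean over 1 d and 2 d had -0.11, 0.02, 0.02 and 0.08 there. Probe 1788560_1 had 0.52, 0.15 and 0.26 at 1 d, then -0.07, -0.82 and 0.4 at 2 d. At 3 d it had 0.25, 0.64 and 0.82. Probe 1775730_1, the lowest, was 1 of the 26 described above. Its alpha-MSH values at 4 d were 0.24, -2.44 and 0.04, so that its low alpha-MSH mean at 4 d came from 1 replicate. Its ASP late value of 0.414 was also near the threshold. The ASP replicates were 1.37, 0.66 and -0.22 at 3 d and 0.49, 0.53 and -0.34 at 4 d.

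The 4 members with the highest alpha-MSH mean over 1 d and 2 d had 0.28, 0.13, 0.11 and 0.09 there. In 1777680_1 the mean came from 1 value, with -0.43, -0.33 and 1.85 at 1 d. Probe 1792024_1 was above 0 with alpha-MSH in every replicate at 1 d, with 0.41, 0.34 and 0.46, and below 0 in every replicate at 3 d, with -0.29, -0.75 and -0.83. None of these 8 members passed the limma test for alpha-MSH or ASP over 1 d and 2 d.

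Most members had their higher ASP means at 3 d rather than 2 d. The ASP mean at 3 d was at or above that at 2 d in 138 of 153 members, and at 4 d at or above that at 3 d in 59. Between 1 d and 2 d, 78 members had the higher value at 2 d. With alpha-MSH the mean at 2 d was below that at 1 d in 110 members, and the mean at 3 d below that at 4 d in 86. These are counts of means, with no test, and the values at 3 d and 4 d chose the members.

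The members resembled each other over the 30 replicates. The median Pearson correlation over the 11628 pairs of members was 0.72. The points share arrays, dyes and possibly untreated RNA, and the rule itself makes the late values alike, so this is a description. It was 0.77 within the 26 members low at 3 h, 0.76 within the 127 others and 0.54 between them. The most alike were 1782087_1 and 1783022_1, at 0.984, 1763881_1 and 1763932_1, at 0.982, and 1783421_1 and 1786315_1, at 0.979. Of all pairs, 59 reached 0.95. Whether such pairs are probes of the same transcript could not be read from the IDs.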

How the data were processed

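The deposited values are log ratios of 2-colour arrays, made by the authors and taken here as log2. The titles of all 59 arrays carry the words low pmt, a scan setting. The sources used here do not otherwise state scanner, spot filter or normalization. Total RNA of treated and untreated cells was coupled to Cy3 or Cy5, per the labels' protocols. Centring subtracted each array's median. The rule used the average over dyes; for the tests, each probe's dye effect was removed within each drug and the dye-swapped arrays of a replicate were averaged, paired by the titles' repeat and database numbers, as no label names the partner. Of the 30 replicates, 1 (ASP at 2 d) is a single array. Groups were compared with limma 3.58.1 in R 4.3.3 (lmFit, eBayes) over all groups, with Benjamini-Hochberg adjustment over every probe with at least 2 replicates in each group compared, a filter added after the data were seen. A call is an adjusted p under 0.05. The test was checked on simulated data. P-values set each estimate against the spread between replicates, stated to be biological. That spread is 1 estimate per probe, shared by all 10 groups of 3 replicates and moderated by eBayes. The groups of 3 d and 4 d, which chose the members, are among them. Array number limits the precision. Replicates given the same number here did not deviate together (median correlation 0.04 within each drug), so no block was used.

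The members and lists were chosen with earlier results of these data known. Named members were, by a written rule, the 10 with the largest late difference, those nearest each threshold, the 6 with the smallest p for each drug over 1 d and 2 d, and the 4 with the least early change toward each late direction. Named outside this rule were the 2 members called lower at 3 h, examples of the 26 members low at 3 h, and the most alike pairs. Alternatives covered centring, probes tested, pairing, blocks, samples and left-out replicates. No column was left unused.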

Additional observations from a re-analysis of the deposited data

Results flagged for a closer look

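One array stood apart among the 6 of its group, as chance alone would give in about 1 in 20 of the groups examined, and 10 groups were examined. On the array of replicate 1 of ASP at 1 d with treated RNA in Cy5, the median of the 153 members was 1.58, against 0.37 to 0.63 on the other 5 arrays of ASP at 1 d.

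The drugs differed, by a test of the difference itself, in 2 members at 1 d, 32 at 2 d and 63 over 1 d and 2 d (limma adjusted p under 0.05), in every case with alpha-MSH below ASP. With ASP, 16 members differed between 1 d and 3 h.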

How the results depend on the processing

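Most counts of calls moved with the settings. Fitted on only the replicates of the groups compared, 0 members were called for ASP at 3 h, 1 d or 2 d, between 1 d and 3 h, or between the drugs at 1 d or 2 d, 1 for ASP over 1 d and 2 d, and 27 between the drugs over both times. For ASP at 3 h the counts of lower calls were 7 without centring, 6 with centring on the probes with a value on all arrays (chosen after seeing the data), 14 when only those probes were tested, 7 with the other pairing, 4 with single arrays as independent and 11 with the pair as a random block. For ASP at 1 d they were 58 on the probes with a value on all arrays, 63 with the other pairing, 58 with independent arrays and 63 with the random block. Between the drugs at 1 d the same 4 settings gave 16, 21, 23 and 32, and at 2 d 57, 58, 50 and 53. For ASP between 1 d and 3 h they gave 38, 31, 30 and 38, and 6 members were called without centring. Tests with any number of replicates, added after seeing the data, gave 5 between the drugs at 1 d. The run as a block gave 17 between the drugs at 2 d. Without the lone array of ASP at 2 d the counts were 17 for ASP at 2 d, 13 between the drugs at 2 d and 39 over both times. Robust estimation changed no count by over 1.5 times.

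The numbers 1 to 3 given to the array pairs, which follow the reverse arrays' repeat numbers, did not pair the replicates across groups: same-numbered deviations correlated at -0.29 to 0.29 among ASP groups and -0.29 to 0.23 among alpha-MSH groups. With the replicate number as a block, 6 members were called lower for ASP at 3 h and 1 between the drugs at 1 d, and 95 for ASP over 1 d and 2 d.

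Leaving out 1 replicate gave 0 to 8 members for ASP at 3 h, 2 to 23 at 1 d, 17 to 42 at 2 d, 60 to 99 over 1 d and 2 d and 0 to 14 between 1 d and 3 h. Between the drugs it gave 0 to 3 at 1 d, 12 to 34 at 2 d and 37 to 68 over both. The alpha-MSH counts, and those between the drugs at 3 h, were 0 under all settings run.

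The number of members was 334 at a threshold of 0.3, 81 at 0.5 and 253 without centring, and 145 to 194 when a late replicate was left out. The cause of these changes was not tested. Channel intensities were not used here, so signal over background is unknown.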
